A study of Oryzias latipes with 50 samples.

Results

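Potassium channel genes were followed over 2 years in part of the brain of medaka (Oryzias latipes), a small fish. A gene was taken when its description named a potassium channel or a potassium voltage-gated channel, or when its symbol began with kcn, and when its mean was at least 1 FPKM. FPKM sets the fragments of a gene against its length and the size of the library. The rule found 105 genes among the 16493 genes of that level, out of 23455 in the table, and 38 further genes with such names lay below 1 FPKM. The label of voltage-gated channels covers only a part of them. Families that open with voltage (Kv1 to Kv4, the silent Kv subunits, Kv7, and Eag, Erg and Elk) made up 47 genes. The remainder were channels gated by calcium or sodium, inward rectifiers (Kir), background channels with tandem pore domains (K2P), auxiliary subunits, and 13 genes of the KCTD family and kcmf1, whose products are not channels. Near the level limit, inside it, lay LOC101172336 at 1.14 and LOC101161541 at 1.19 FPKM, and just outside it LOC101171082 at 0.787, LOC101171995 at 0.769 and LOC101173735 at 0.604 FPKM.

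The tissue block held the ventral telencephalon, hypothalamus and pituitary of fish kept outdoors at Okazaki, Japan, under natural light and temperature, and was taken about monthly near 8 pm. There were 25 dates from September 2015 to September 2017 by the labels, with 2 libraries each, 50 in all. Summer (June to August) and winter (December to February) had 6 dates each. August to October, when days shorten, had 7 dates and February to April, when days lengthen, had 6. The second year (October 2016 to September 2017) and the first year (October 2015 to September 2016) had 12 dates each. No genotype, strain, sex, age or number of fish per library is stated, so p-values measure the spread between dates only. Library sums ran between 278558 and 341666 FPKM, and relative depth inferred from the smallest steps of the values between 0.846 and 1.067. None of the 105 genes was at 0 in any library.

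Potassium channels let potassium leave the cell, which ends the action potential, sets its rate and holds the resting potential. A Kv channel is a ring of 4 pore subunits opened by depolarization, and its speed and place on the neuron follow from the subunits joined and from auxiliary proteins. Kir channels pass current best near rest, several of them under control of G proteins or ATP, and K2P channels carry a steady leak. These roles are known mainly from mammals. Bony fish carry extra copies of many of these genes, and 54 of the 105 are listed by LOC symbols with only a description.

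Levels are per length and can be set side by side between genes. Summed over members, Kir genes stood at 223 ± 30.6 FPKM (SD over 25 dates), BK and Slack genes at 148 ± 14.8, auxiliary subunits at 156 ± 17.2 and Kv1 genes at 89.3 ± 11.5 FPKM. The highest single channel gene was kcnj10 (Kir4.1, which takes up potassium in glia), at 67.6 ± 27.9 FPKM. Then came kcnk1 (TWIK1, a K2P leak channel) at 43.4 ± 8.39, LOC101166987 (a G protein-activated Kir, annotated as channel 3) at 42.3 ± 6.23 and LOC101174692 (the BK pore subunit) at 41.5 ± 6.05 FPKM. The last 3 lay within each other's SD over dates. The highest Kv1 gene was LOC105353871 (subfamily A member 1-like) at 31.2 ± 7.29 FPKM and the highest Kv3 gene kcnc1 at 31.3 ± 3.01 FPKM. Among genes that are not channels, kctd4 stood at 90.8 ± 22.9 FPKM.

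An annual curve was called for 59 of the 105 genes by limma's F test (adjusted p under 0.05, adjusted over all 16493 genes), where the share over all genes was 53.4%. The median fitted range from peak to trough was 0.36 on the log2(FPKM + 1) scale for the members and 0.36 for all genes tested. Share and size thus lay near those of all genes. Differences on this scale understate the change of low genes. Fitted peaks of the called members fell in 2 seasons, with 19 in January, 4 in February and 1 in December, and with 2 in June, 14 in July, 18 in August and 1 in September. None peaked between March and May or in October or November. All called genes had a like pattern, with 29.3% peaking in January, 32.9% in July and 22.1% in August. In each of the months without a member peak, 0.647% of them or fewer peaked. The ranges were widest in kcnj8 (1.74 ± 0.25, SE, January), kcne4 (1.27 ± 0.23, August) and LOC101161745 (1.19 ± 0.15, January). When each year was fitted alone, 51 of the 59 had peaks no more than 45 days apart in the calendar (86.4%, against 92% of all called genes).

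**Figure D1:**
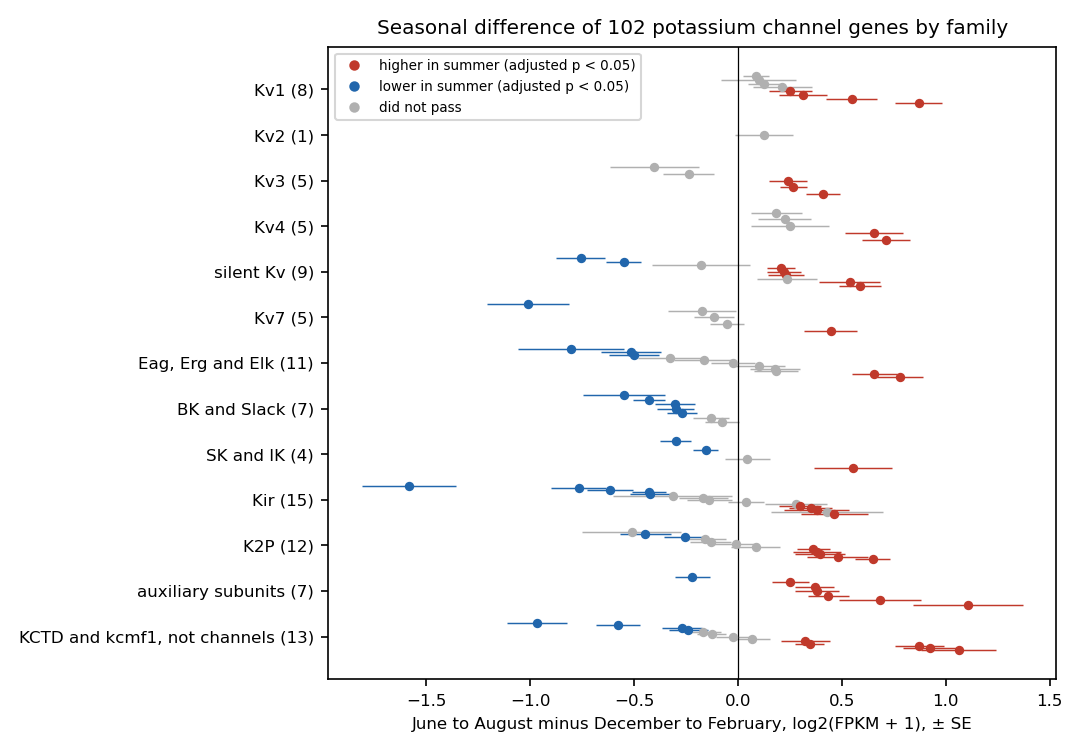
Summer minus winter difference of log2(FPKM + 1) for 102 of the 105 genes (points, with SE bars), in rows by family with the number of genes plotted in brackets. Red points were called higher in summer, blue points lower, and grey points did not pass; Kv1 and Kv4 points lie right of 0, and the BK and Slack points left of it.

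The first contrast set June to August against December to February. In summer 39 members were higher (37.1%, against 31% of all genes tested) and 26 were lower (24.8%, against 23.5%), while 40 did not pass. The share of lower members lay near that of all genes, and the gap in the share of higher members was not tested. Each of the 65 called members had the same sign in both years. They were called on the dates of both years pooled, so a shared sign is in part built in. The size could differ between years, as given below for LOC101168654. More of the summer than of the winter dates fell from July 2016 on, so a change at that time enters this contrast. With a step term at July 2016 in the fit, 44 members were higher and 30 lower (34% and 23.6% of all genes). Out of all 105 members, summer and winter dates did not overlap in 17 that were higher (16.9% of all genes did so). They did not overlap in 15 of the 105 that were lower (14.1% of all genes). Dates without overlap were thus about as common among the members as among all genes, here and for the single genes below. The median difference was 0.43 among the members called higher and -0.44 among those called lower, and 2 in each direction differed by at least 1 on the log2(FPKM + 1) scale. In this bulk tissue fewer cells of a type and less RNA per cell cannot be told apart.

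The Kv1 to Kv4 families, which make voltage-gated currents of neurons, had 10 of 20 members higher in summer and 0 lower. Of all genes tested, 31% were higher and 23.5% lower. With median ratio scaling or quantile normalization the members' count was 8 and 0. Over all genes the shares were 27.8% and 27.4% with the first scaling, and 26.9% and 27.5% with the second. In further settings given below 1 Kv3 gene was lower. Among Kv1 genes, which set the threshold of firing along axons, 4 of 8 rose and 0 fell. LOC105354379 (subfamily A member 3-like) had a lowest, median and highest date of 15.6, 17.5 and 19.0 FPKM in summer, against 7.82, 8.71 and 12.3 FPKM in winter. The dates did not overlap, and the difference was 0.87 ± 0.11 (SE; adjusted p = 1.84e-06). LOC101171484 (subfamily A member 2) had 7.11, 8.92 and 10.4 FPKM in summer, against 4.60, 5.84 and 6.49 FPKM in winter, a difference of 0.55 ± 0.12 (adjusted p = 0.000608). The most abundant Kv1 gene, LOC105353871, averaged 32.2 ± 5.02 FPKM in summer and 30.2 ± 6.75 FPKM in winter (SD, n = 6 dates each, here and for the later seasonal means) and did not pass (adjusted p = 0.658). With quantile normalization the Kv1 count was 2 higher and 0 lower.

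Both abundant Kv4 genes rose in summer. Kv4 channels carry the A-type current, which opens below threshold and delays the next spike. LOC101159502 (subfamily D member 3) had 29.8, 32.8 and 33.2 FPKM in summer, against 16.1, 19.4 and 21.9 FPKM in winter. LOC101165880 (subfamily D member 2) had 25.0, 31.0 and 39.1 FPKM in summer, against 15.9, 19.4 and 22.9 FPKM in winter. Neither gene had a summer date within its winter range. The differences were 0.71 ± 0.12 (adjusted p = 1.91e-05) for the D member 3 gene and 0.66 ± 0.14 (adjusted p = 0.000394) for the D member 2 gene. The other 3 Kv4 genes did not pass, with differences between 0.19 and 0.25. Summed over the 5 Kv4 genes the level was 83.6 ± 4.81 FPKM in summer and 56.0 ± 1.76 FPKM in winter (SD, n = 6 dates each).

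Kv3 genes rose in part. Kv2 channels give the slow delayed rectifier of the cell body, and kcnb2 averaged 16.8 ± 2.75 FPKM in summer and 15.4 ± 2.85 FPKM in winter, with overlapping dates (adjusted p = 0.461). Kv3 channels open at high voltage and allow fast firing. In that family kcnc1 had 33.8, 34.4 and 35.9 FPKM in summer, against 27.1, 28.1 and 31.0 FPKM in winter (difference 0.27 ± 0.07, adjusted p = 0.0013), and kcnc2 differed by 0.41 ± 0.08 (adjusted p = 0.000199). Both had every summer date above every winter date. LOC101159863 rose by 0.24 ± 0.09. Its call was lost without replicate 1 of February 2016 (adjusted p = 0.0624), with median ratio scaling (0.0569) and with July to September set against January to March (0.33). The other 2 Kv3 genes, kcnc4 and LOC101168545, had differences of -0.24 and -0.40 and did not pass. With July to September set against January to March the Kv3 count was 2 higher and 1 lower (30.5% and 21% of all genes). With the libraries fitted separately and the date as a random effect it was 3 and 1 (30.5% and 23.2% of all genes).

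Silent subunits form no channel alone but join Kv2 subunits and alter their current. Of 9 such genes, 5 were higher and 2 lower in summer, against 31% and 23.5% of all genes. With quantile normalization the count was 3 and 2, against 26.9% and 27.5%. The gene kcnf1 (Kv5.1) had 12.2, 12.5 and 13.2 FPKM in summer, against 6.92, 8.02 and 9.74 FPKM in winter (difference 0.59 ± 0.10, adjusted p = 3.75e-05). In the other direction kcng1 (Kv6.1) had 6.85, 8.12 and 9.39 FPKM in summer, against 11.7, 14.6 and 17.7 FPKM in winter, and fell by 0.76 ± 0.12 (adjusted p = 1.26e-05). LOC110017390 (subfamily G member 2-like) averaged 5.38 ± 0.402 FPKM in summer and 8.39 ± 1.13 FPKM in winter and fell by 0.55 ± 0.08 (adjusted p = 9.98e-06). For these 3 genes the summer and winter dates did not overlap, so the partners of Kv2 moved both ways.

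**Figure D2:**
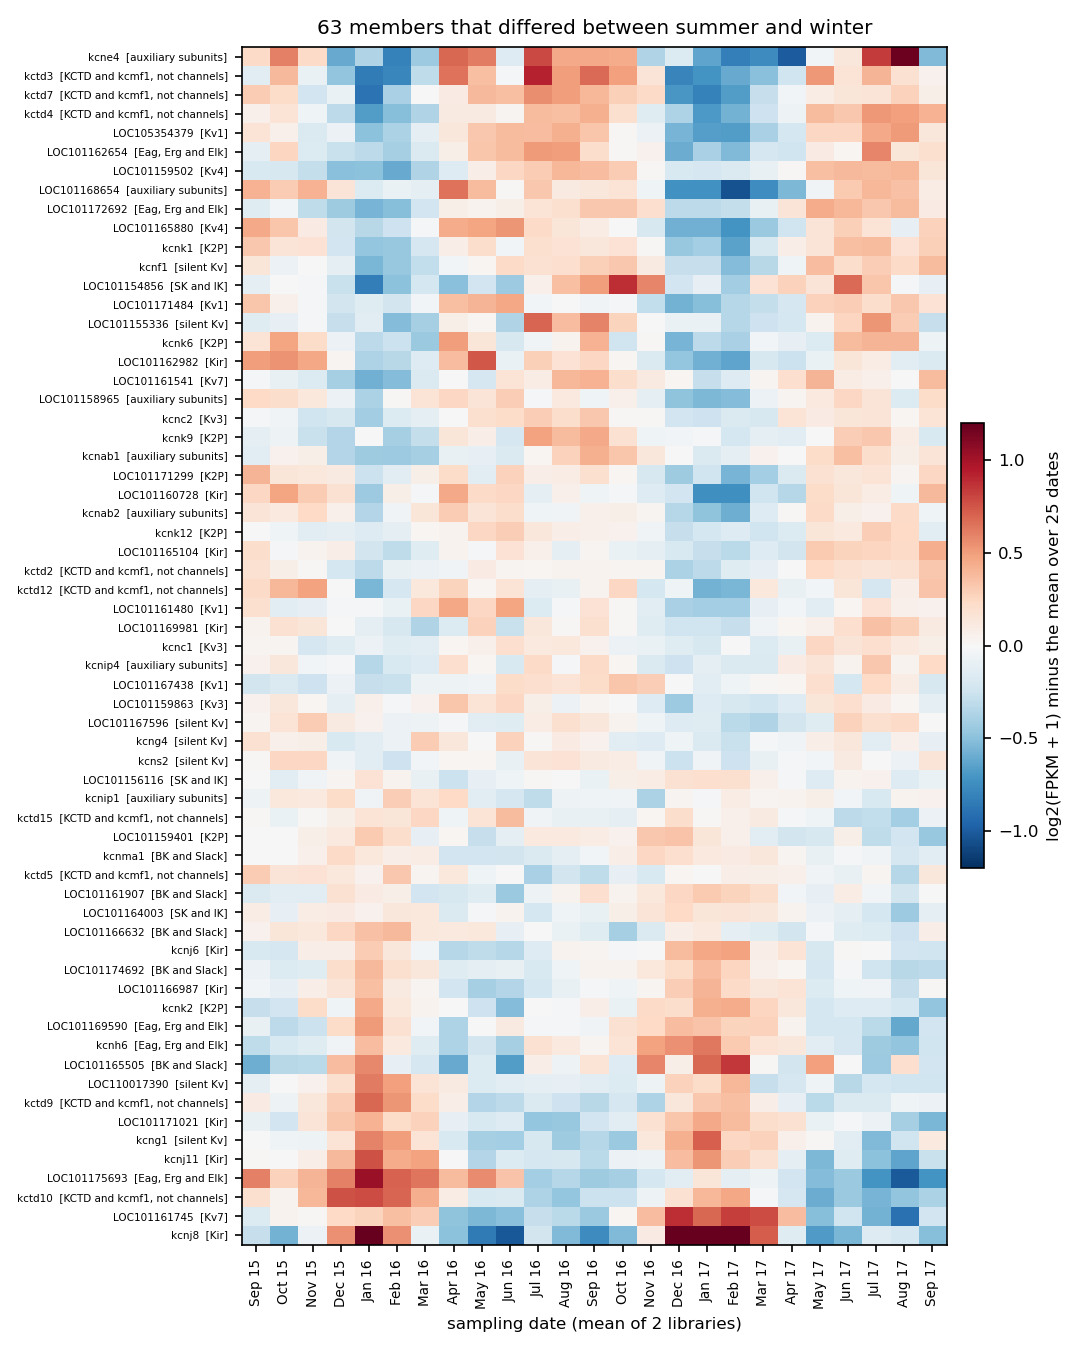
Heat map of 63 of the 65 members called between summer and winter (rows, from the largest rise at the top to the largest fall at the bottom, family in brackets) on 25 dates (columns). Colour gives the date mean of log2(FPKM + 1) minus the mean over all dates; red bands in the upper rows and blue bands in the lower rows return in both summers.

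Several Kv7 channels, though not all, carry the M-current, which holds back repeated firing. Of 7 genes 1 rose and 2 fell, against 31% and 23.5% of all genes. Among them LOC101161745 (KQT member 5) had 1.23, 2.12 and 2.52 FPKM in summer, against 3.91, 5.00 and 6.64 FPKM in winter, and fell by 1.01 ± 0.20 (adjusted p = 0.000143). Its summer and winter dates did not overlap. kcnq3, a subunit of the mammalian M-channel, differed by -0.05 ± 0.08 (adjusted p = 0.606). The riser, LOC101161541 (KQT member 1), stood at a mean of 1.19 FPKM and did not pass with quantile normalization (adjusted p = 0.0591) or on the dates from July 2016 alone (0.113). Its dates lay between 1.15 and 1.825 FPKM in summer and between 0.44 and 1.18 FPKM in winter. It thus passed the limit of 1 FPKM through its higher dates, and its rise is in part built in.

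Eag, Erg and Elk genes split, with 2 of 11 higher and 3 lower, against 31% and 23.5% of all genes. Erg channels pass current after a depolarization and shape pacing, in pituitary cells of mammals among others. LOC101172692 (subfamily H member 2, Erg1) had 24.1, 27.7 and 30.6 FPKM in summer, against 15.3, 17.6 and 18.6 FPKM in winter (difference 0.66 ± 0.11, adjusted p = 2.18e-05). LOC101162654 (subfamily H member 8, an Elk channel) averaged 3.99 ± 0.744 FPKM in summer and 1.89 ± 0.246 FPKM in winter (0.78 ± 0.11, adjusted p = 3.85e-06). Both were apart on every date. The other 3 Erg genes fell. LOC101175693 (H member 7) averaged 3.68 ± 1.60 FPKM in summer and 7.21 ± 2.74 FPKM in winter and fell by 0.80 ± 0.25 (adjusted p = 0.00981). This gene was lower from July 2016 on, as given below, and more summer than winter dates fell in that time, so these means include that step. From July 2016 on its summer dates lay between 1.995 and 3.765 FPKM and its winter dates between 4.52 and 5.695 FPKM. Its call held in all 9 other settings. LOC101169590 (H member 7) fell by 0.50 ± 0.12 and kcnh6 by 0.52 ± 0.15.

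BK channels open with calcium and voltage together, SK channels with calcium alone, and Slack channels (subfamily T) with sodium, and all contribute to the pause after a spike. Of the 11 genes of these groups, beta subunits included, 7 fell (23.5% of all genes did) and 1 rose (31% of all genes). LOC101174692 (BK pore subunit) had 32.4, 37.4 and 40.5 FPKM in summer, against 47.2, 48.7 and 54.3 FPKM in winter, and fell by 0.43 ± 0.08 (adjusted p = 6.59e-05). Its paralog kcnma1 averaged 27.4 ± 1.63 FPKM in summer and 33.2 ± 1.43 FPKM in winter and fell by 0.27 ± 0.07 (adjusted p = 0.00245). Neither BK pore gene overlapped between seasons. Of the subfamily T genes, LOC101161907 (member 1) and LOC101166632 (member 2) each fell by 0.30, with an SE of 0.09 and 0.10. LOC101174597, a second member 1 gene, differed by -0.13 and did not pass (adjusted p = 0.21). LOC101166632 was also lower in the second year, by 0.22 (limma, adjusted p = 0.0272). On the dates from July 2016 alone its seasonal difference was -0.15 and did not pass (adjusted p = 0.231). Neither LOC101161907 nor LOC101166632 passed with July to September set against January to March (adjusted p of 0.177 and 0.118). The beta subunit LOC101165505, at a mean of 1.78 FPKM, fell by 0.55 ± 0.20. BK and Slack genes together stood at 136 ± 9.15 FPKM in summer and 168 ± 5.14 FPKM in winter. With July to September set against January to March the BK and Slack count was 0 higher and 2 lower of 7. In that setting 30.5% of all genes were higher and 21% lower, and LOC101165505 did not pass (adjusted p = 0.0789).

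Among SK genes LOC101164003 (SK2) averaged 17.6 ± 2.06 FPKM in summer and 21.8 ± 1.03 FPKM in winter and fell by 0.30 ± 0.07 (adjusted p = 0.00148). The SK3 gene LOC101154856 went the other way, at 6.02 ± 1.82 FPKM in summer and 3.71 ± 0.791 FPKM in winter (0.55 ± 0.19, adjusted p = 0.0144), with 5 of 6 summer dates above every winter date. It did not pass with quantile normalization (adjusted p = 0.0584) or with July to September set against January to March (0.0573). A second SK2 gene, LOC101156116, fell by 0.16 ± 0.06. Its call was lost without replicate 1 of December 2015 or February 2016, or replicate 2 of July 2016 or July 2017 (adjusted p of up to 0.077), and in the same 2 settings (adjusted p of 0.0548 and 0.0872).

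**Figure D3:**
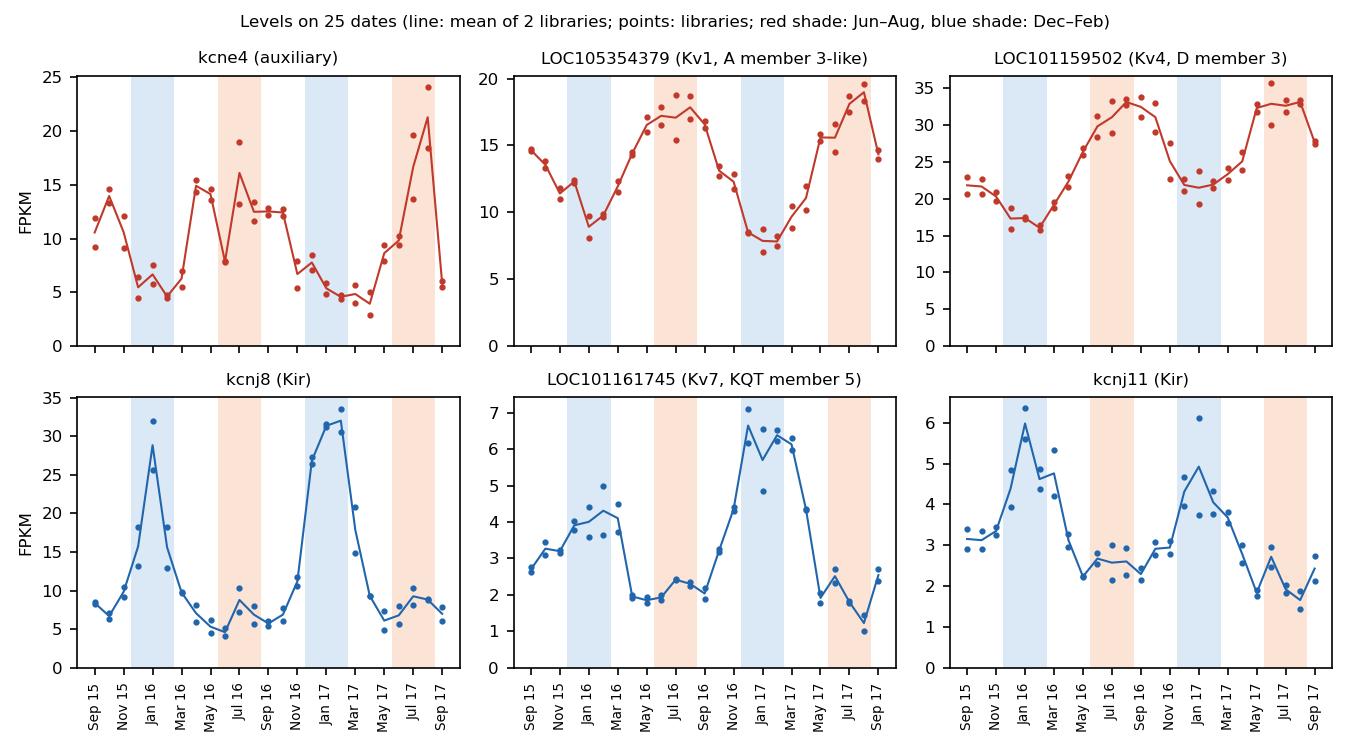
FPKM on 25 dates for kcne4, LOC105354379 and LOC101159502 (upper row) and kcnj8, LOC101161745 and kcnj11 (lower row); lines join date means, points are the 2 libraries, and red and blue shading marks June to August and December to February. The upper genes are high in the red bands, except kcne4 in June 2016 (7.86 FPKM). The lower genes are high in the blue bands of both years, with kcnj8 between 15.6 and 32.0 FPKM on the winter dates.

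The widest fall of any member was in kcnj8 (Kir6.1), a pore subunit of ATP-sensitive channels, in mammals a gene of vessel wall cells. It had 4.62, 7.84 and 9.28 FPKM in summer, against 15.6, 27.8 and 32.0 FPKM in winter. No dates overlapped, and kcnj8 fell by 1.58 ± 0.23 on the log2 scale (adjusted p = 5.09e-06). Of the 2 genes of the other pore subunit, Kir6.2, LOC101160728 rose by 0.38 ± 0.16, as described with the copies, and kcnj11 had 1.66, 2.59 and 2.72 FPKM in summer, against 4.05, 4.50 and 5.98 FPKM in winter, and fell by 0.77 ± 0.13 (adjusted p = 3.9e-05). Of the sulfonylurea receptors that surround the pore, abcc8 fell by 0.34 ± 0.10 (adjusted p = 0.00429) and abcc9 differed by 0.23 ± 0.11 without passing (adjusted p = 0.075). Of the endothelial markers, which mark the lining of vessels, 5 of 8 were higher and 0 lower in summer, against 31% and 23.5% of all genes. These markers had summed levels of 54.7 to 73.3 FPKM in summer and 38.4 to 53.3 FPKM in winter. Their part in these differences was not tested.

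Of all 15 Kir genes 4 rose and 5 fell, against 31% and 23.5% of all genes. With quantile normalization 1 rose and 5 fell, against 26.9% and 27.5%. Among the fallers, 3 were G protein-activated channels, which slow firing when inhibitory transmitters bind: LOC101171021 (channel 4), LOC101166987 (channel 3) and kcnj6. LOC101171021 had 8.10, 9.42 and 11.4 FPKM in summer, against 13.6, 15.1 and 16.2 FPKM in winter, and fell by 0.62 ± 0.11 (adjusted p = 5.62e-05). LOC101166987 fell by 0.43 ± 0.08 and kcnj6 by 0.42 ± 0.10, and all 3 were apart on every date. GIRK1, the subunit that joins the others, was annotated for kcnj3 at 27.5 ± 2.11 FPKM in summer and 26.8 ± 2.32 FPKM in winter (adjusted p = 0.72), and for LOC101165104, which rose by 0.35 ± 0.10. The glial gene kcnj10 averaged 49.9 ± 7.23 FPKM in summer and 66.4 ± 28.7 FPKM in winter and did not pass (adjusted p = 0.365).

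K2P genes had 5 of 12 higher and 2 lower, against 31% and 23.5% of all genes. The most abundant, kcnk1, had 41.7, 48.4 and 55.7 FPKM in summer, against 26.9, 30.8 and 36.2 FPKM in winter, with no overlap (0.65 ± 0.08, adjusted p = 1.65e-06). kcnk2 (TREK1, a leak channel sensitive to stretch and temperature) averaged 6.66 ± 0.945 FPKM in summer and 9.44 ± 1.46 FPKM in winter and fell by 0.45 ± 0.12 (adjusted p = 0.0035). The other faller, LOC101159401, lost its call in 6 of 9 other settings (adjusted p of up to 0.252) and in 10 of 50 fits without 1 library. The acid-sensitive leak channel gene kcnk9 rose by 0.39 ± 0.12 (adjusted p = 0.00723).

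Auxiliary subunits had 6 of 7 members higher and 1 lower, against 31% and 23.5% of all genes. The single-span subunit gene kcne4, whose mammalian product dampens Kv1 and Kv7 currents, had 7.86, 14.3 and 21.3 FPKM in summer, against 4.58, 5.42 and 7.77 FPKM in winter. The dates were apart by little, and kcne4 rose by 1.11 ± 0.27 (adjusted p = 0.00114), the largest rise of any member. Beta subunits bind Kv1 channels from inside the cell. LOC101168654 (beta-1) had 17.1, 21.3 and 22.7 FPKM in summer, against 7.68, 12.4 and 19.0 FPKM in winter, with 4 of 6 summer dates above every winter date (0.68 ± 0.20, adjusted p = 0.00492), and kcnab1, kcnab2 and LOC101158965 rose by 0.38 ± 0.11, 0.37 ± 0.09 and 0.43 ± 0.10. The Kv4 partner kcnip1 (KChIP1) averaged 40.2 ± 3.62 FPKM in summer and 47.0 ± 4.53 FPKM in winter and fell by 0.22 ± 0.08 (adjusted p = 0.0303), while kcnip4 rose by 0.25 ± 0.09. The call of kcnip1 was lost on the dates from July 2016 alone (adjusted p = 0.248), with a step term at July 2016 (0.0524) and with July to September set against January to March (0.113), and that of kcnip4 with median ratio scaling (0.0504).

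Among the KCTD genes, whose products are adaptors such as those of ubiquitin ligases, 5 rose and 4 fell of 13 with kcmf1. Of all genes 31% rose and 23.5% fell. kctd4 had 90.0, 114 and 127 FPKM in summer, against 54.0, 60.2 and 70.5 FPKM in winter (0.87 ± 0.12, adjusted p = 2.5e-06). kctd3 averaged 6.04 ± 1.73 FPKM in summer and 2.31 ± 0.324 FPKM in winter (1.06 ± 0.18, adjusted p = 3.79e-05). kctd7 averaged 4.99 ± 0.726 FPKM in summer and 2.21 ± 0.723 FPKM in winter (0.92 ± 0.13, adjusted p = 3.9e-06). These 3 genes were apart on every date. The falls were kctd10, at 4.44 ± 0.512 FPKM in summer and 9.68 ± 1.70 FPKM in winter (by 0.97 ± 0.14, adjusted p = 7.12e-06), kctd9 by 0.58 ± 0.11 (adjusted p = 8.44e-05), kctd5 by 0.27 ± 0.09 and kctd15 by 0.24 ± 0.09. The call of kctd15 was lost without replicate 2 of August 2016 or replicate 1 of July 2017 (adjusted p of up to 0.0546) and with the step term (0.0664), and that of kctd5 on the dates from July 2016 alone (0.0838) or in the other months (0.0798).

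The channels' partner genes that fall outside the naming rule were read from a list of 23 names, matched to 39 genes. In summer 18 of these genes were higher and 10 lower. The shares over all genes, here and for the markers below, were 31% and 23.5%. The smallest adjusted p belonged to LOC101155808 (dpp6, which brings Kv4 channels to the surface and speeds them), at 19.6 ± 1.98 FPKM in summer and 8.70 ± 1.69 FPKM in winter, a difference of 1.10 ± 0.10. Its relative dpp10 differed by 0.80 ± 0.11, and a second dpp10 gene fell by 0.42 ± 0.08. LOC101158796 (hcn3, a pacemaker channel gene) differed by 0.89 ± 0.11 and lgi1 (a secreted protein of the Kv1 complex) by 1.08 ± 0.13. Markers of neurons moved with these rises: 12 of 21 were higher in summer and 0 lower, with summed levels of 1654 to 2142 FPKM in summer and 1459 to 1771 FPKM in winter, and none at 0. Oligodendrocyte markers had 5 of 12 higher and 1 lower, with sums of 869 to 1441 FPKM in summer and 551 to 1181 FPKM in winter, and erythrocyte markers 3 of 6 higher and 2 lower, with sums of 1725 to 3172 FPKM in summer and 771 to 1994 FPKM in winter. Pituitary hormone genes were higher in 4 of 9, with sums of 3505 to 9423 FPKM in summer and 2563 to 3667 FPKM in winter. Microglial markers, summed, had 188 to 279 FPKM in summer and 496 to 845 FPKM in winter, with 2 of 10 higher and 3 lower. The part of these markers in the members' differences was not tested. Retinal pde6 averaged 1.93 FPKM, and among skeletal muscle markers ckm averaged 5.00 FPKM.

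**Figure D4:**
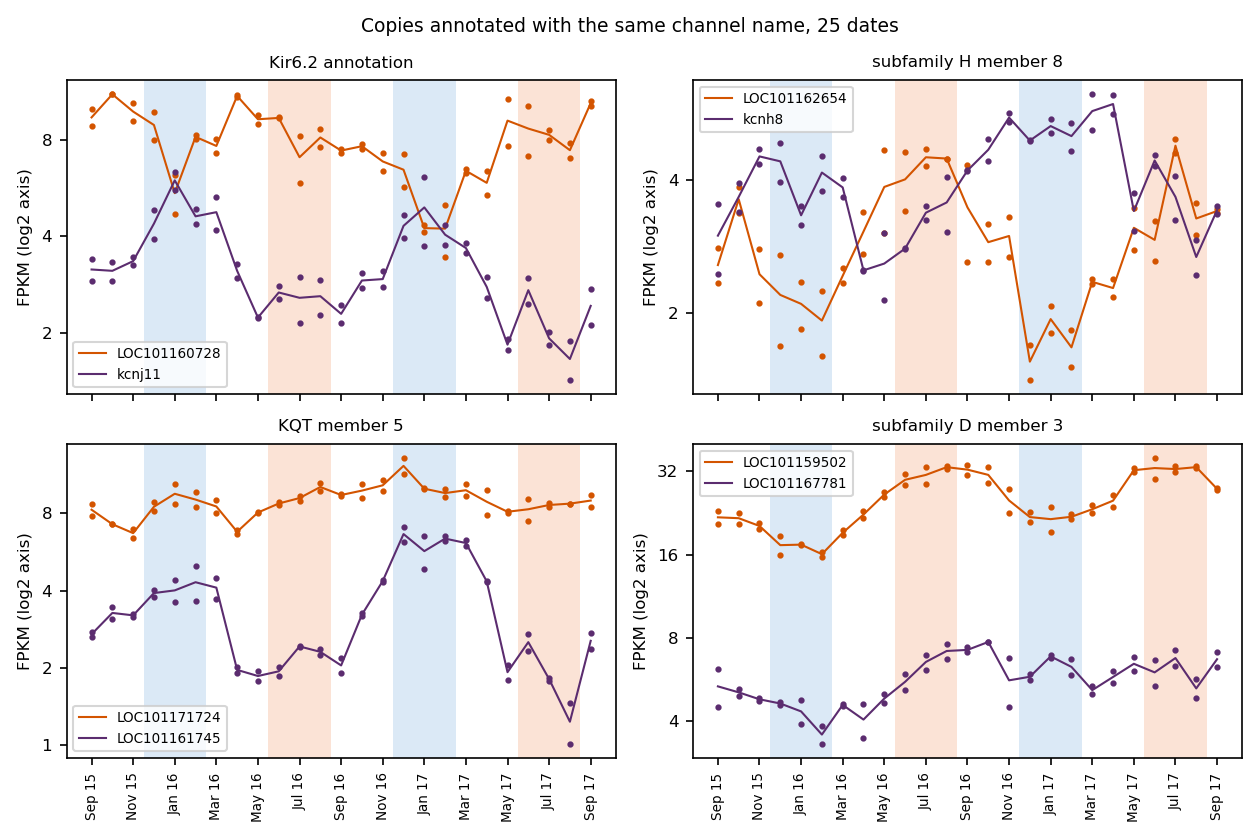
FPKM (log2 axis) on 25 dates for 4 pairs of genes that share a channel annotation; lines join date means, points are libraries, and red and blue shading marks June to August and December to February. kcnj11 peaks in January of both winters, where LOC101160728 is low (5.455 FPKM in January 2016, 4.245 FPKM in January 2017). In December 2015 and February 2016 LOC101160728 lies within its summer range. LOC101162654 lies below kcnh8 on every winter date.

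Copies with the same channel annotation did not always share a season. There were 23 annotations with more than 1 gene, which gave 31 pairs. The seasonal difference of 1 copy minus that of the other was tested by a two-sided exact permutation of the 6 summer and 6 winter dates, where the smallest p possible is 0.00216, with adjustment over the 31 pairs. In 11 pairs the copies differed. In 9 pairs both copies were called, and in all but 1 of these they moved in the same direction. How often pairs of other genes do so was not counted. In 1 pair both were called in opposite directions. LOC101160728, annotated like kcnj11 as Kir6.2, averaged 8.16 ± 0.833 FPKM in summer and 6.24 ± 1.97 FPKM in winter, a difference of 0.38 ± 0.16 (adjusted p = 0.0418) where kcnj11 fell by 0.77. The copies differed by 1.15 (exact permutation p = 0.00216, adjusted 0.00959). The rise of LOC101160728 passed in 44 of 50 fits that left out 1 library. It was lost without replicate 1 of December 2015, July 2016 or June 2017, or replicate 2 of January 2016, December 2016 or February 2017, with an adjusted p of up to 0.0729, and with quantile normalization or no filter on low genes.

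A pair of Elk genes differed by 1.11 in size. LOC101162654 rose by 0.78, whereas kcnh8 averaged 3.41 ± 0.638 FPKM in summer and 4.52 ± 0.719 FPKM in winter and did not pass (adjusted p = 0.0817). For these genes, exact permutation gave p = 0.00216 (adjusted 0.00959). The KQT member 5 pair likewise held LOC101161745, which fell by 1.01, and LOC101171724, at 8.96 ± 0.646 FPKM in summer and 9.83 ± 1.30 FPKM in winter, a difference between copies of 0.90 (exact permutation, adjusted p = 0.00959). Of the D member 3 genes, LOC101159502 and LOC101167781, the abundant copy rose by 0.49 more than the other (exact permutation, adjusted p = 0.00959). Of the A member 2 genes, LOC101171484 rose by 0.55 and LOC101157775 differed by 0.09. The remaining pairs that differed were the D member 2, SK2, Kir4.1, K2P member 10 and Kir channel 12 genes, the last with 2 pairs. The permutations held no term for July 2016, and more summer than winter dates fell from then on. In the Kir4.1 pair, kcnj10 had a median of 45.4 FPKM from July 2016 and of 89.1 FPKM before. In the D member 2 pair, kcnd2 had medians of 2.30 and 3.62 FPKM. The part of that step in the differences between copies was not tested. How reads shared by near-identical copies were divided is not known from the deposited values.

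Days of like length that shorten (August to October) or lengthen (February to April) formed the next contrast. When days shortened, 18 members were higher (12.9% of all genes were) and 7 lower (9.06% of all genes). August belongs also to summer and February to winter, so the contrast shares dates with the first. kcne4 averaged 12.7 ± 4.61 FPKM in August to October and 6.52 ± 4.18 FPKM in February to April (SD, n = 7 and 6 dates), and rose by 0.93 ± 0.25 (adjusted p = 0.0127). LOC105354379 rose by 0.51 ± 0.12 (adjusted p = 0.00653), kctd3 by 0.60 ± 0.20, kctd4 by 0.58 ± 0.12 and kctd7 by 0.50 ± 0.15. These 5 genes were also higher in summer. Dates of the contrast did not overlap in 3 members that were higher, LOC101167596, kcnk1 and kctd2 (1.31% of all genes), and in 0 that were lower (0.812%).

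The largest falls of that contrast included 3 Kir genes that were also lower in summer. kcnj8 had 5.75, 6.90 and 8.85 FPKM in August to October, against 7.08, 12.7 and 32.0 FPKM in February to April, and fell by 0.83 ± 0.27 (adjusted p = 0.0329). LOC101171021 had 7.59, 9.71 and 10.8 FPKM in August to October, against 10.7, 13.6 and 15.3 FPKM in February to April, and fell by 0.49 ± 0.09 (adjusted p = 0.00237). LOC101161745 fell by 0.64 ± 0.18, kctd10 by 0.47 ± 0.15 and kcnj11 by 0.43 ± 0.13. September and October set against March and April leaves out the months shared with summer and winter. In that setting limma called 0 members in either direction and 1 of all 16493 genes. At an unadjusted p under 0.05 there were 15 members, and the number of all genes at that level was not counted. The call of kctd10 was lost without replicate 2 of April 2016 (adjusted p = 0.0533) or of March 2017 (0.0607). With quantile normalization 14 members were higher and 10 lower (11.3% and 11.7% of all genes), and with median ratio scaling 15 and 10 (10.9% and 11.6%).

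**Figure D5:**
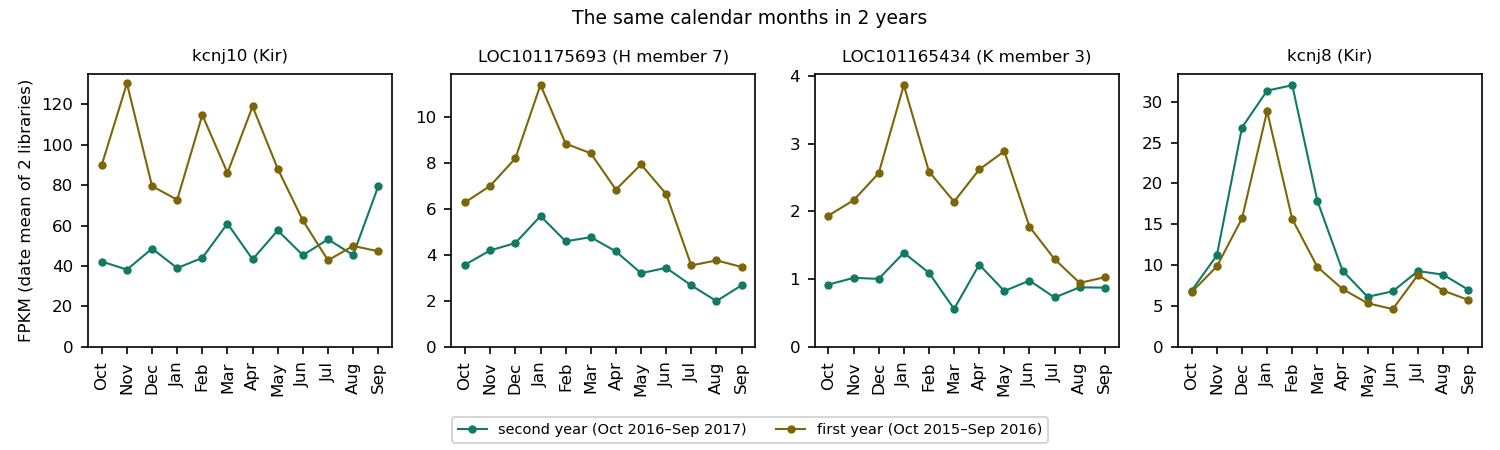
FPKM (date means of 2 libraries) by calendar month in the second year (green) and the first year (brown) for kcnj10, LOC101175693, LOC101165434 and kcnj8. In the first 3 genes the second year lies below the first in each month from October to June, and in kcnj8 the second year is higher in all 12 months.

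The second year was set against the first month by month. In the second year 7 members were higher (3.01% of all genes were) and 16 lower (8.97% of all genes). With median ratio scaling the split was 10 and 14 (4.92% and 6.04% of all genes), and with quantile normalization 9 and 13 (5.15% and 5.84%). LOC101175693 (H member 7) averaged 3.79 ± 1.06 FPKM in the second year and 6.87 ± 2.38 FPKM in the first (SD, n = 12 dates each), was lower in 12 of 12 months and fell by 0.68 ± 0.07 (adjusted p = 0.000216). LOC101165434 (K member 3) averaged 0.958 ± 0.218 FPKM in the second year and 2.15 ± 0.837 FPKM in the first and fell by 0.64 ± 0.10 (adjusted p = 0.00125). With a mean of 1.59 FPKM over all libraries, it passed the limit of 1 FPKM through its early dates. The direction of its fall is thus in part built in by that limit. The glial kcnj10 averaged 49.8 ± 11.7 FPKM in the second year and 81.9 ± 28.8 FPKM in the first, was higher in the second year in 2 of 12 months and fell by 0.65 ± 0.18 (adjusted p = 0.0287). The rises were smaller: kcnj8 rose by 0.38 ± 0.08 (adjusted p = 0.0111), LOC101155792 (H member 1-like) by 0.37 ± 0.07 (adjusted p = 0.00416) and kcnc4 by 0.25 ± 0.08 (adjusted p = 0.0483). kcnc4 kept its call in 27 of 50 fits without 1 library, the highest adjusted p being 0.0688.

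For LOC101165434 (K member 3) and LOC101175693 (H member 7) the dates from July 2016 on stood apart. LOC101175693 ranged between 2.00 and 5.70 FPKM on the 15 dates from July 2016, against 6.29 and 11.4 FPKM on the 10 earlier dates. LOC101165434 ranged between 0.560 and 1.39 FPKM from July 2016, against 1.77 and 3.87 FPKM before. Neither gene's ranges overlapped, though LOC101165434 passed the limit of 1 FPKM through the earlier dates. The split date was chosen with these data known, and 0.6% of all genes had every later date below every earlier one and 0.0728% above. Among the members LOC101171605 (G member 3) also lay below, between 2.08 and 4.39 FPKM from July 2016, against 4.63 and 7.24 FPKM before, and LOC101171169 (H member 4) lay above. kcnj10 had a median of 45.4 FPKM from July 2016 and of 89.1 FPKM before, with ranges that overlapped. Marker genes also moved between the years. Lower in the second year were 7 of 21 neuronal, 6 of 12 oligodendrocyte, 3 of 12 radial glial and 3 of 8 endothelial markers, and 0 of them were higher. Of 9 pituitary hormone genes 1 was higher and 0 lower. Of 10 microglial and 6 erythrocyte markers 0 were called in either direction. Of all genes 8.97% were lower and 3.01% higher, a lean that was smaller with the other scalings given above. Radial glial markers summed to 1598 to 2807 FPKM on dates of the second year and 1963 to 3651 FPKM on dates of the first. Their part in the members' differences was not tested.

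The shape of the annual curve was not called different between the years for any member. By limma's interaction test 0 of 105 passed, with a lowest adjusted p of 0.103, while 5 of all genes passed (0.0303%). An unadjusted p under 0.05 was found for 22 of the 105 members and for 2953 of all 16493 genes. With the libraries fitted separately and the date as a random effect 4 members passed, as did 2.75% of all genes. The lowest adjusted p belonged to LOC101168654 (beta-1), whose summer minus winter difference was 1.19 in the second year and 0.18 in the first.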

How the data were processed

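The series holds 50 libraries of a medaka brain block, 2 for each of 25 dates. Per the labels' protocols, poly-A mRNA went into strand-specific paired-end libraries of 100 bases. Bowtie2 2.2.5 and RSEM 1.2.12 are listed, per the submitters' processing notes, without a role. No positions are printed, as the genome build is not given in the sources used here. The authors deposited FPKM values, with no further scaling stated. Read totals were not used. The inferred relative depth rests on 5319 values of 220 genes, 71.9% of them within 10% of whole multiples of a step, and says nothing of absolute depth, so no counting interval is given.

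Members and gene lists were chosen with earlier results of these data known, and so were the step at July 2016 and the test of copies. RefSeq names (assembly ASM223467v1, for names only) matched all 105 members. log2(FPKM + 1) was averaged over the 2 libraries of a date. The 16493 genes whose mean reached 1 FPKM were fitted with limma 3.58.1 (R 4.3.3, variance trend), with Benjamini-Hochberg adjustment over all of them and a threshold of 0.05. The fits comprised a yearly cosine with its sine on 25 dates, the 2 seasonal contrasts of means of 3-month blocks, the years with the calendar month as a block, and the interaction of year and curve, the last 2 without September 2015. Scripts were tested on simulated data. Exact permutations used scipy 1.17.1.

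Genes were named by rule: in each family the most abundant member and the one with the smallest annual p; the 10 largest rises and falls between summer and winter, 5 each between shortening and lengthening days and 3 each between years; and the 4 related genes with the smallest p. Values of some genes are not reported here. Other genes were named after their values were seen, to fill in a family, a copy pair or a partner. Alternatives were another pseudocount, no filter, 2 other scalings, libraries fitted separately with and without the replicate block, parts of the dates, a step at July 2016, other months, and leaving out each library.

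The replicate numbers carry no stated pairing. Deviations of replicate 1 from its date mean had a median correlation across genes of 0.00973 over 276 pairs of dates (between -0.114 and 0.138), so they were not taken as pairs.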

Additional observations from a re-analysis of the deposited data

Results flagged for a closer look

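Of 84 groups of dates tested among the named members, 3 held a date far from the others, where chance gives about 1 in 20. On the February to April dates kcne4 stood at 14.9 FPKM in April 2016, while the other 5 dates lay between 3.93 and 6.27 FPKM. Its libraries of that date were at 15.5 and 14.3 FPKM. kctd3 stood at 7.39 FPKM in April 2016, with libraries at 7.41 and 7.36 FPKM, while the other dates lay between 2.12 and 3.54 FPKM. On the winter dates kcnc2 stood at 7.89 FPKM in January 2016, with libraries at 8.07 and 7.70 FPKM, while the other dates lay between 9.00 and 9.56 FPKM.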

How the results depend on the processing

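Of the tests of members named by the rule, 474 kept their direction and side of the threshold in other settings, 17 no longer passed, 4 passed anew and 0 turned round. Many of these members were named for a small p or a large called difference, so part of this stability is built in. Leaving out 1 library gave between 57 and 61 members with an annual curve, between 36 and 39 higher and 25 and 27 lower in summer (62 to 65 in all), between 17 and 21 higher and 6 and 9 lower as days shortened (24 to 28 in all), between 6 and 8 higher and 15 and 18 lower in the second year (21 to 25 in all), and 0 with a curve that differed between years. Of 65 calls between summer and winter, 56 held in each of these fits and 45 in all 9 other settings. Of 59 annual calls 54 held in each of these fits and 30 in all other settings. Of 25 calls as days shortened, 18 and 0 did so, and of 23 calls between years 21 and 19. The annual curve was called for 37 members from the dates to June 2016 only, against 32.1% of all genes, in a fit with 10 dates. As days shortened, 39 members differed with the date as a random effect (14 of them lower; 25.5% and 10.4% of all genes), 38 with the step term (11 lower; 26.4% and 9.7% of all genes) and 0, with 0 higher and 0 lower, in September and October against March and April. Between years 40 differed with the random effect, 16 of them higher (16.9% and 4.66% of all genes). With the replicate block in that fit, 12 were lower as days shortened (10.9% of all genes). Between years 39 then differed, 16 of them higher (16.7% and 4.52% of all genes). A curve that differed between years was called for 2 with the block and 4 without it (3.07% and 2.75% of all genes). No other count moved by over 1.5 times under the block. The cause of these changes was not tested. No read totals stand behind the values, so low genes such as LOC101172336 have an unknown counting error.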
